A study of Mus musculus with 12 samples.

Results

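The elastases described here are Cela1, Cela2a and Cela3b, 3 genes that the arrays measured with 6 probe sets among 12393 genes and 20380 probe sets carrying exactly 1 gene symbol. A probe set is a group of short probes for 1 transcript. Members were taken by the gene symbol of the platform annotation, which gave Cela1 and Cela2a 1 probe set each and Cela3b 4. The set was chosen on measured values: Cela1 was picked out because its signal was present in the liver of all mice, and the other elastases as genes restricted to the pancreas, so the contrast in level between Cela1 and the others is a description and was not tested. Earlier results of these data were also known when the members were chosen.

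Chymotrypsin-like elastases are serine proteases that the acinar cells of the exocrine pancreas make as inactive precursors and secrete into the gut, where trypsin activates them to digest dietary protein. Elastase 1, the product of Cela1, cuts after small residues such as alanine and is able to degrade elastin. Elastase 2A prefers larger hydrophobic residues, and elastase 3B, whose human form has little activity on elastin, belongs to the same family. Acinar genes of this kind are switched on in the pancreas by the PTF1 complex, which contains the transcription factors Ptf1a and Rbpjl and binds a bipartite element made of an E-box and a TC-box. Hepatocytes, the main cells of the liver, are not the usual source of digestive enzymes and secrete inhibitors of such proteases into the blood. Which liver cells gave the Cela1 signal was not measured.

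Liver RNA came from 12 female C57BL/6 mice, an inbred laboratory strain, hybridised to 12 Affymetrix arrays. The 4 groups of 3 mice were testosterone at the end of treatment (0.9 mg in 100 µl sesame oil, injected under the skin 2 times a week for 3 weeks), vehicle at the end of treatment (100 µl of the oil alone on the same schedule), testosterone after withdrawal and vehicle after withdrawal. The titles give the withdrawal as 12 weeks and the series' design text as 3 weeks, and no label settles which holds. The sources used here give no age for the mice. The question named in the labels was how testosterone affects gene expression in the female liver in the short and the long term. The title of the series adds a change of the female liver towards exocrine pancreas.

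Array medians lay between 20.03 and 22.44 signal units, with correlations of 0.979 to 0.989 between arrays within a group. Hepatocyte markers were high on every array, with albumin (Alb) at 4510 to 6052 units. Testosterone withdrawal mice 1 and 2 stood apart from the other 10 mice in exocrine pancreas transcripts. Elastase changes in comparisons that hold mice 1 and 2 are therefore also given with mouse 3 alone in that group. No such value is given for the other genes named. The ratio of 3' to 5' beta-actin signal, a measure of RNA integrity, averaged 2.11 ± 0.0769 under testosterone and 1.52 ± 0.108 under vehicle at the end of treatment (SD, n = 3 each, two-sided exact permutation p = 0.1, the lowest this design can reach). After withdrawal it averaged 1.62 ± 0.179 under testosterone and 1.77 ± 0.154 under vehicle (SD, n = 3 each, exact permutation p = 0.2). In testosterone mice it separated the times, at 1.47 to 1.82 after withdrawal and 2.03 to 2.19 at the end (exact permutation p = 0.1). In vehicle mice the times overlapped (exact permutation p = 0.2). The same ratio for Gapdh separated the treatment-end groups and the times in testosterone mice (exact permutation p = 0.1 each). Signals are array intensities, comparable between mice for 1 probe set but not between probe sets.

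The stretches before the transcription starts are shown because Cela2a and Cela3b moved together while Cela1 had a signal in every liver. The promoters cover 250 bases upstream of each start, from RefSeq on GRCm38.p6, all 3 genes lying on the minus strand: Cela1 at chr15:100687921-100688170, Cela2a at chr4:141826006-141826255 and Cela3b at chr4:137430521-137430770. They are written 5′ to 3′ in the direction of the gene, and capitals mark the E-box letters CACCTG and the TC-box letters TTTCCC, or their reverse complements.
Cela1: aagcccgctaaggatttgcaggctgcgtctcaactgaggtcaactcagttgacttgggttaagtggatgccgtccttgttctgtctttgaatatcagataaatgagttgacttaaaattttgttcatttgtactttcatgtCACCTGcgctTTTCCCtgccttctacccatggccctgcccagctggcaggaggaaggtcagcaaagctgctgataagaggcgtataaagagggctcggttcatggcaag
Cela2a: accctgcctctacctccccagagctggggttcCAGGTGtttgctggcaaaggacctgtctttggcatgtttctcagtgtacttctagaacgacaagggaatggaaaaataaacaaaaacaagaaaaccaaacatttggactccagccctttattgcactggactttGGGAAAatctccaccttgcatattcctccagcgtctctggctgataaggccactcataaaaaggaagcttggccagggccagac
Cela3b: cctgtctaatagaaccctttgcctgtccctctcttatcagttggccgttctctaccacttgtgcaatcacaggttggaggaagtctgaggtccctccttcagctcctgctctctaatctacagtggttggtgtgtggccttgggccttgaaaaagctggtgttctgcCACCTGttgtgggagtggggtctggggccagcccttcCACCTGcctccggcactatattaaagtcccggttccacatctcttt

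Both strands of 32851 promoters of this length were searched. CACCTG occurred 1 time before Cela1, 1 time before Cela2a and 2 times before Cela3b, and in 17.2% of all promoters. TTTCCC occurred 1 time before Cela1 and 1 time before Cela2a, but not in the Cela3b window, and in 21.9% of all promoters. Both were present before Cela1 and Cela2a, as in 3.61% of all promoters. Counting back from the start, with -1 as the last base before it, Cela1 had the E-box at -109 to -104 and the TC-box at -99 to -94, both on the strand of the gene. Cela2a had them further apart, at -218 to -213 and -84 to -79, both on the opposite strand. Among other short motifs, the androgen receptor core AGAACA had 1 match each before Cela1 and Cela3b (16.1% of promoters), the GATA element AGATAA 1 match before Cela1 (9.99%), and TATAAA 1 match before Cela1 (12.4%). The STAT element TTCNNNGAA had no match in the 3 windows (7.02%). None of these motifs overlapped another in the 3 windows. A match describes the letters only.

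Cela1 mRNA was higher in testosterone livers than in vehicle livers at both times. At the end of treatment its signal was 320, 270 and 344 in testosterone mice 1, 2 and 3, against 164, 191 and 209 in vehicle mice 1, 2 and 3. All 3 testosterone mice lay above all 3 vehicle mice. Of all 7217 genes tested, 35.7% had groups without overlap, in either direction. Means were 311 ± 37.8 in testosterone mice and 188 ± 22.6 in vehicle mice (SD, n = 3 each). In the limma fit over all genes tested, Cela1 rose 1.66-fold at the end of treatment (log2 change 0.73, SE 0.22, adjusted p = 0.03287). At this threshold 17.4% of genes tested were called in that comparison.

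At the end of treatment the log2 change of Cela1 stayed at 0.63 to 0.83 with 1 mouse left out, but the call was not always kept. It was lost when any of testosterone mouse 1 (limma adjusted p = 0.08928), testosterone mouse 3 (0.1027), vehicle mouse 1 (0.1109) or vehicle mouse 2 (0.06379) was left out, and when all 12393 genes were tested without a filter (0.1461). With the actin ratio added to the fit, the Cela1 change was 0.80 on the log2 scale with an adjusted p of 0.5582. The ratio separated the mice of this comparison.

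After withdrawal the Cela1 signal was 446, 509 and 282 in testosterone mice 1, 2 and 3, against 160, 96.7 and 91.1 in vehicle mice 1, 2 and 3. Again every testosterone mouse exceeded every vehicle mouse, while 25.9% of genes tested had groups without overlap. Means were 413 ± 117 in testosterone mice and 116 ± 38.1 in vehicle mice (SD, n = 3 each). Cela1 rose 3.57-fold in limma (log2 change 1.84, SE 0.22, adjusted p = 8.178e-05), where 6.00% of genes tested were called. The call was kept in each of 25 alternative settings, with log2 changes of 1.33 to 2.09. Many of these could not move the change from 1.84. Cela1 has 1 probe set, well above the floor, and treatment-end mice enter only the shared spread. With mouse 3 as the lone testosterone mouse, assumed to vary like the other groups, the log2 change was 1.33 (limma adjusted p = 0.01819).

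**Figure D1:**
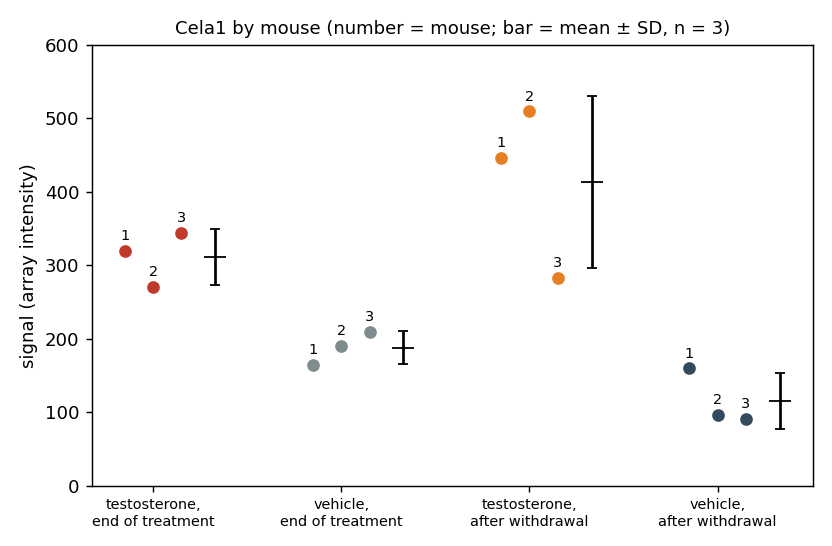
Cela1 signal (array intensity, linear axis from 0) in each of the 12 mice, with the mean ± SD of each group (n = 3) beside its points. At each time the 3 testosterone mice lie above the 3 vehicle mice, and testosterone withdrawal mouse 3, at 282, lies closest to the testosterone mice at the end of treatment.

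The testosterone effect on Cela1 was not shown to differ between the times. The difference of the log2 changes was 1.11 (SE 0.31, limma adjusted p = 0.06879), where 2.19% of genes tested were called. It was 0.61 (adjusted p = 0.3009) with mouse 3 alone, 1.36 (0.04267) without mouse 3, 1.36 (0.01707) without vehicle withdrawal mouse 1, and 1.20 (0.02521) with array weights. Within the testosterone mice, Cela1 after withdrawal did not pass the test against the end of treatment (log2 change 0.37, SE 0.22, adjusted p = 0.3079), where 10.9% of genes were called. With mouse 3 alone this change was -0.13 (adjusted p = 0.8301). The 282 to 509 units of the withdrawn testosterone mice overlapped the 270 to 344 of those at the end of treatment, whereas 31.0% of genes had no overlap in this comparison.

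In the vehicle mice Cela1 was lower after withdrawal than at the end of treatment. The signal was 91.1 to 160 in withdrawn vehicle mice and 164 to 209 in treatment-end vehicle mice, so the groups did not overlap, as in 35.1% of genes tested. The fall was 1.67-fold in limma (log2 change -0.74, SE 0.22, adjusted p = 0.03151), with 17.8% of genes called in the comparison. This call was lost without vehicle end mouse 2 (adjusted p = 0.06957), vehicle end mouse 3 (0.08799), vehicle withdrawal mouse 2 (0.1192) or vehicle withdrawal mouse 3 (0.1421), without the filter (0.1414) and with the beta-actin ratio as a covariate (0.2061). Ranked by mean, Cela1 was highest in testosterone mice after withdrawal, then in treatment-end testosterone mice, vehicle mice at the end and vehicle mice after withdrawal. Only the neighbours at the top of that order did not pass the test. These comparisons share groups of mice and are not independent of each other. The mouse ages and the sampling times cannot be told apart from the withdrawal.

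**Figure D2:**
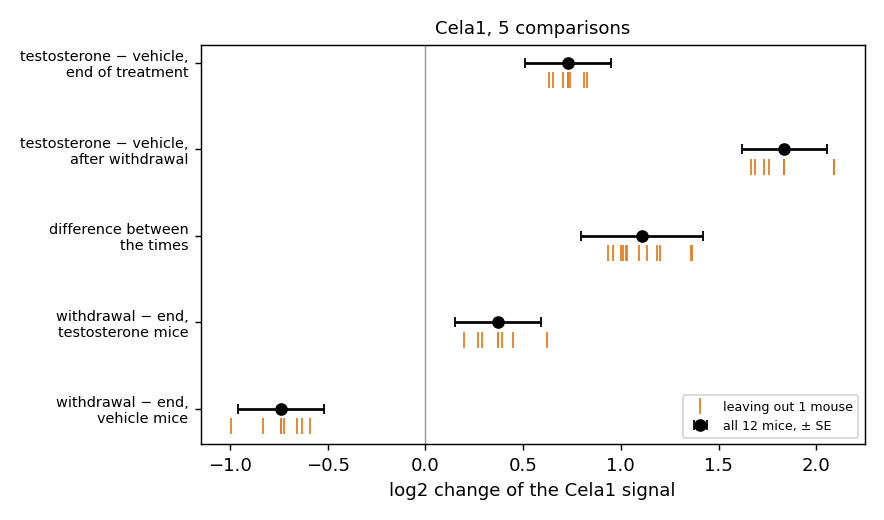
Log2 change of the Cela1 signal in 5 comparisons (points, limma estimate with all 12 mice ± SE) and the same change with each mouse left out in turn (ticks, none of them past 0 on the other side). The change after withdrawal, 1.84, is the largest, and the difference between the times, 1.11, has the widest error bar.

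The 5 genes whose log2 signals followed Cela1 most closely over the 12 mice, among 7217, were Mtch2 (Pearson r = 0.939), a protein of the mitochondrial outer membrane, Susd4 (0.934), an inhibitor of complement, Cyp7b1 (0.923), an oxysterol hydroxylase, Slco1a1 (0.917), an uptake transporter for organic anions, and Pdia6 (0.912), a folding enzyme of the endoplasmic reticulum. The mice are grouped, so such correlations describe group differences and carry no test. Cyp7b1 had 1410, 1731 and 1452 units in withdrawn testosterone mice 1, 2 and 3, against 240 to 436 in withdrawn vehicle mice. Mouse 3 was thus inside the range of mice 1 and 2 for Cyp7b1, as for Slco1a1 (917, 1281 and 1052 in mice 1, 2 and 3). Mouse 3 lay below mice 1 and 2 for Susd4, for Mtch2 (837, 899 and 762) and for Pdia6 (695, 716 and 561). For Susd4 the values were 88.6, 115 and 77.8 units in withdrawn testosterone mice, against 7.71 to 13.7 in withdrawn vehicle mice. Cela2a ranked at position 364 in likeness to Cela1 (r = 0.638), and Cela1 correlated with Cela3b at 0.513 over the same 12 mice.

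Cela2a had a signal well above the rest in 2 of the 3 withdrawn testosterone mice and in 1 vehicle mouse. After withdrawal it read 103, 244 and 10.8 in testosterone mice 1, 2 and 3, against 12.7, 11.0 and 6.94 in vehicle mice. Mouse 3 lay inside the vehicle range, so the groups overlapped. At the end of treatment Cela2a read 13.7, 13.9 and 15.1 in testosterone mice, against 52.1, 12.0 and 13.0 in vehicle mice. Vehicle mouse 1 was the high one of that group, and the summed signal of the other exocrine enzymes was 86.7 to 97.4 in the 3 vehicle mice, including this mouse. Since these are pieces of liver, more cells of a type and more RNA per cell cannot be told apart for any elastase.

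Cela2a passed the filter on dim genes because it exceeded the array median on exactly 3 arrays, those of testosterone withdrawal mice 1 and 2 and of vehicle mouse 1 at the end of treatment. Its log2 change after withdrawal was 2.71 (6.55-fold, SE 0.81), with a limma adjusted p of 0.06288 that missed the threshold. It was 0.13 with mouse 3 as the lone testosterone mouse, and 4.0 with mouse 3 left out (limma adjusted p = 0.0004699). Leaving out mouse 3 keeps only mice 1 and 2, through which Cela2a passed the filter, so that p is not independent of the filter. The Cela2a change after withdrawal also passed the threshold without vehicle end mouse 1 (2.71, limma adjusted p = 0.04899). With each array centred on its median it was 2.80 (0.03971), and with array weights 2.77 (0.03386). At the end of treatment the log2 change was -0.50 (SE 0.81, adjusted p = 0.7138), and 0.18 without vehicle mouse 1. The difference between the times was 3.21 (SE 1.15, adjusted p = 0.127), and 0.64 with mouse 3 alone. In the testosterone mice the withdrawal time against the end gave 2.19 (adjusted p = 0.1008), or -0.39 with mouse 3 alone, and in the vehicle mice -1.03 (adjusted p = 0.4078). Of the 3 elastases, Cela1 was called in 3 of the 5 comparisons and Cela2a in 0, or in 3 at an unadjusted p under 0.05 (limma), which 1485, 1580 and 1870 of the 7217 genes passed after withdrawal, for the difference between the times and for the time in testosterone mice. Each of these 3 comparisons holds testosterone withdrawal mice 1 and 2, 2 of the 3 arrays through which Cela2a passed the filter.

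Cela3b had its highest signals in the same pair of mice. At the probe set with the highest mean floored log2 signal, though not the highest mean signal, it read 30.5, 69.9 and 16.2 in withdrawn testosterone mice 1, 2 and 3, against 11.6, 10.6 and 6.74 in withdrawn vehicle mice. Here mouse 3 also lay above the vehicle mice, so these groups did not overlap at this probe set, against 25.9% of genes tested. At the end of treatment the signal was 6.75, 8.41 and 1.13 in testosterone mice, against 9.997, 8.72 and 10.02 in vehicle mice. At this probe set the testosterone mice lay below the vehicle mice without overlap, against 35.7% of genes tested, which leave out Cela3b. Testosterone mouse 3 was under the floor of 4.84 units used before log2. At the other Cela3b probe sets the treatment-end groups overlapped, with means of 1.00, 4.79 and 3.00 in testosterone mice. The vehicle means there were 0.519, 1.31 and 5.23, so the direction differed between probe sets.

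The other 3 Cela3b probe sets gave the same pair of mice and differed over mouse 3. They read 49.2, 131 and 1.91, then 48.4, 121 and 6.91, and lastly 138, 445 and 7.22 in testosterone withdrawal mice 1, 2 and 3. At the first of them the 9 mice of the other groups lay at 0.286 to 2.06, all under the floor and around the value of mouse 3. At the second those 9 mice reached 9.94 and at the third 8.66, both above mouse 3. The higher signal of mouse 3 was thus seen against all 9 mice at 1 of the 4 Cela3b probe sets.

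None of the 4 Cela3b probe sets exceeded the array median on 3 or more arrays, so Cela3b did not pass the filter and has no test in the fit over 7217 genes. Its log2 change of group means was 1.79 after withdrawal, -0.56 at the end of treatment and 2.35 for the difference between the times. With mouse 3 alone the change after withdrawal was 0.78 and the difference 1.34. In testosterone mice the withdrawal time against the end gave 2.32, with the floor in place of 1 dim signal, and 1.31 with mouse 3 alone. In vehicle mice it gave -0.03. When all 12393 genes were fitted without a filter, the limma adjusted p was 0.1045 for the change after withdrawal. For the time in testosterone mice it was 0.03197, on a log2 change of 2.32, where 490 of the 12393 genes were called. In an unfiltered limma fit of every probe set, the adjusted p for that time was 0.03825 at the probe set used. At the other Cela3b probe sets it was 0.1859, 0.1762 and 0.1319. The mean of the 4 probe sets gave a change of 2.70 after withdrawal.

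**Figure D3:**
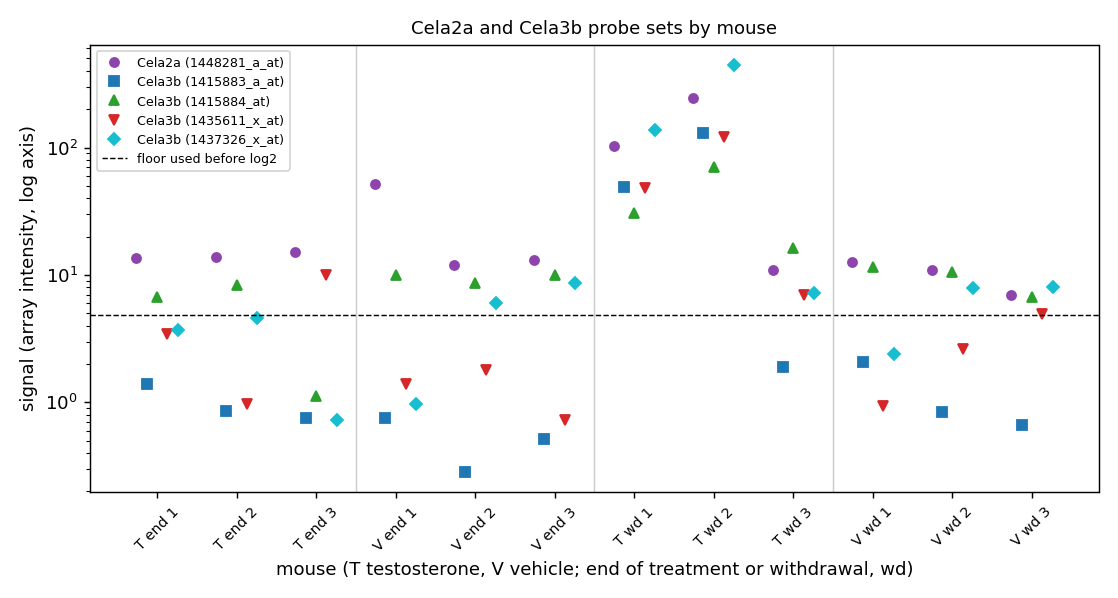
Signals of the Cela2a probe set and the 4 Cela3b probe sets in each mouse (array intensity, log axis), with T for testosterone, V for vehicle and wd for withdrawal, and a dashed line at the floor of 4.84. Testosterone withdrawal mice 1 and 2 have the highest signal at all 5 probe sets, and the Cela2a point of vehicle mouse 1 at the end of treatment, at 52.1, is the next highest of that probe set.

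The proportion between the 2 high mice differed between Cela1 and the other elastases, as a description. Cela1 was picked for its signal in all mice and had 91.1 to 344 units in the 9 mice of the other groups. Over such a base the same added signal gives ratios nearer 1. The ratios therefore cannot decide whether Cela1 behaved differently in these mice. Mouse 2 over mouse 1 was 1.14 for Cela1, against 2.38 for Cela2a and 2.29, 2.66, 2.51 and 3.21 for the 4 Cela3b probe sets. Relative to mouse 3 of the same group, Cela1 was 1.58-fold higher in mouse 1 and 1.80-fold higher in mouse 2. For Cela2a the same ratios were 9.46 and 22.5. Cela1 in mice 1 and 2 exceeded the highest of the other 10 mice by 1.30-fold and 1.48-fold, whereas Cela2a did so by 1.97-fold and 4.68-fold.

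The genes most like Cela2a over the 12 mice, among 550 whose log2 signal ranged over 2 or more, were Cel (Pearson r = 0.922), the bile salt dependent lipase, Irs2 (0.914), an adaptor of insulin signalling, the carboxypeptidases Cpb1 (0.901) and Cpa1 (0.900), and the chymotrypsin-like protease Ctrl (0.899). Those most like Cela3b were Rnase1 (0.924), a secreted ribonuclease, Ctrb1 (0.922), a chymotrypsinogen, Zg16 (0.920), a zymogen granule protein, Reg1 (0.911), a secreted lectin of acinar cells, and Pnliprp1 (0.910), a lipase-related protein. Cela2a and Cela3b correlated at 0.827. Apart from Irs2, these genes are products of the exocrine pancreas, and each of them had its highest signals in testosterone withdrawal mice 1 and 2. Irs2 read 20.4, 17.2 and 6.37 in withdrawn testosterone mice 1, 2 and 3, against 4.58 to 7.28 in withdrawn vehicle mice, and its highest value outside mice 1 and 2 was 13.5 in vehicle mouse 1 at the end of treatment.

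The other exocrine pancreas enzymes and secreted products formed a list of 38 genes, 25 of them on the array. At 17 of these 25, testosterone withdrawal mice 1 and 2 had the 2 highest of the 12 signals, against 2.28% of all 12393 genes (282), by a criterion set after the values were seen. Counting every probe set, 29 of 40 met it, from 19 of the 25 genes. Cela1, Cela2a and Cela3b met it as well. Zg16 read 64.6, 211 and 11.7 in withdrawn testosterone mice 1, 2 and 3, against 9.999, 11.1 and 10.2 in withdrawn vehicle mice. Ctrb1 read 70.4, 172 and 6.04 in the same testosterone mice, against 7.43, 2.23 and 1.08 in the vehicle mice. Cpa1 read 40.3, 138 and 0.472, against 0.492, 1.44 and 1.67, so mouse 3 had no more of it than the vehicle mice.

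Among the 17 genes the ratio of mouse 2 to mouse 1 had a median of 2.30 (range 0.997 to 3.43), which takes in the 2.38 of Cela2a and the 4 ratios of Cela3b. The 1.14 of Cela1 lay between the ratios of Klk1 (0.997), a kallikrein, and Spink1 (1.21), a trypsin inhibitor, whose highest signals were 11.1 and 9.49. The summed signal of the 25 genes was 598, 1445 and 121 in testosterone withdrawal mice 1, 2 and 3, 97.2 to 126 in withdrawn vehicle mice, 89.3 to 96.3 in treatment-end testosterone mice and 86.7 to 97.4 in vehicle mice at the end. Mouse 3 exceeded all 9 mice of the other groups at 6 of the 25 genes, and at 1409 of all 12393. Only 1 of the 25, 2210010C04Rik, passed the filter, at a dim probe set that read 14.9, 21.5 and 20.6 in testosterone withdrawal mice 1, 2 and 3, and it was called in none of the 5 comparisons. Its other 2 probe sets read 177, 404 and 5.4 and then 60.7, 153 and 10.3 in those mice, against at most 4.78 and 10.2 in the 9 mice of the other groups. The part of these transcripts in the elastase results was not tested.

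**Figure D4:**
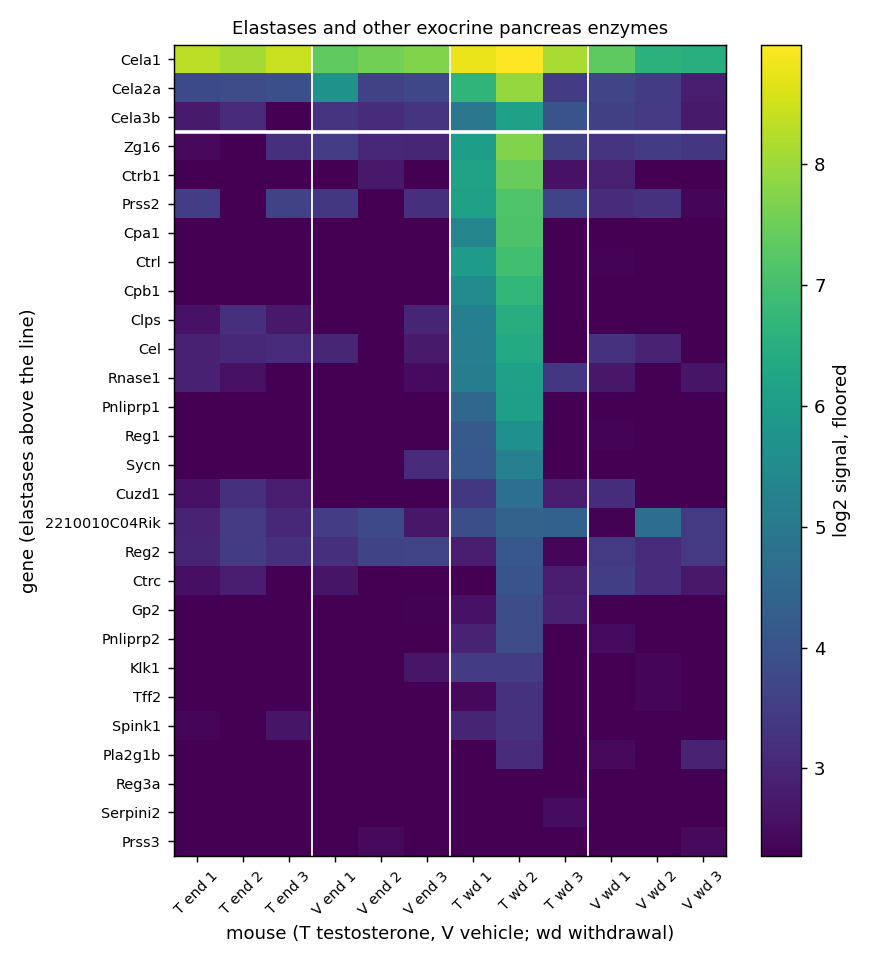
Log2 signal (floored at 4.84 units) of the 3 elastases, above the line, and of 25 other exocrine genes, below it, in each mouse, with T for testosterone, V for vehicle and wd for withdrawal. Cela1 is bright in every column, whereas Cela2a, Cela3b and most enzymes are bright in testosterone withdrawal mice 1 and 2.

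**Figure D5:**
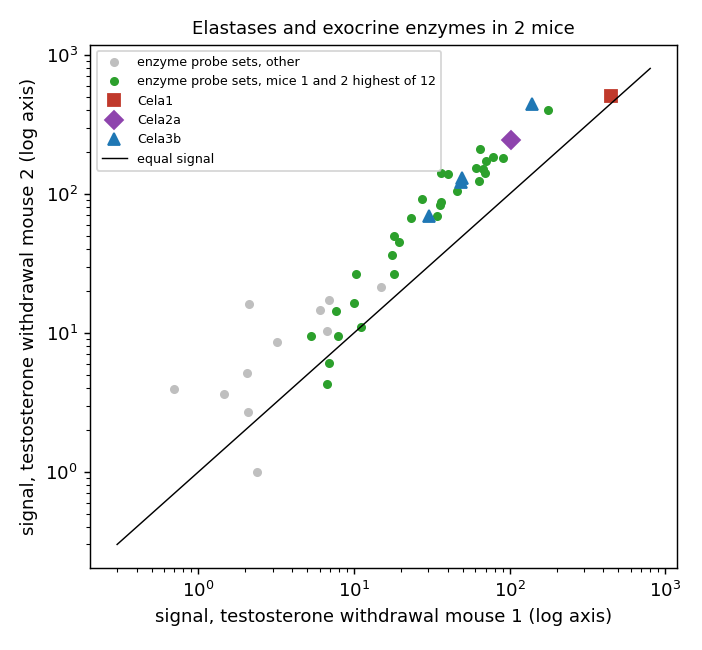
Signal in testosterone withdrawal mouse 2 against mouse 1 (array intensity, log axes) for the elastase probe sets and 40 probe sets of the other exocrine genes, with a line of equal signal. Cela1 lies near the line, with a ratio of 1.14, and Cela2a and Cela3b lie above it among the enzymes, at 2.29 to 3.21.

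Of 8 acinar transcription factors on the array, 0 had testosterone withdrawal mice 1 and 2 as the highest of the 12, a criterion that 2.28% of all genes met, so the count says little of these genes. Bhlha15, a factor of secretory cells, read 8.65, 13.5 and 11.6 in withdrawn testosterone mice 1, 2 and 3, against 7.25, 8.48 and 7.92 in withdrawn vehicle mice. Ptf1a, which starts the acinar programme, read 3.93, 2.65 and 8.36 in withdrawn testosterone mice 1, 2 and 3, against 2.00, 0.740 and 2.62 in withdrawn vehicle mice, and Rbpjl, its adult partner, reached 1.19 in the same testosterone mice and 1.41 in the same vehicle mice. In mice 1 and 2 both genes lay under the floor of 4.84. The liver cells that expressed the 5 factors tested were not identified. Of these 5, 2 rose and 0 fell at the end of treatment, Foxa2 (limma log2 change 0.58, adjusted p = 0.008373) and Onecut1 (1.77, adjusted p = 0.001198). The median of the 5 was 0.13 against 0.04 for all genes tested, of which 17.4% were called. After withdrawal 0 were higher in testosterone than in vehicle mice and 1 was lower, Foxa2 (limma log2 change -0.89, adjusted p = 0.000735). The median was -0.34 against -0.04 for all genes tested, of which 6.00% were called. Foxa2 read 99.9, 129 and 101 in treatment-end testosterone mice and 99.0, 104 and 103 in withdrawn ones. In vehicle mice it read 84.8, 63.0 and 72.6 at the end and 184, 177 and 205 after withdrawal, a rise that was called. The lower value after withdrawal thus came with higher vehicle signals.

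Of 7 endocrine pancreas markers and 5 duct markers on the array, 0 had mice 1 and 2 highest, near the 2.28% of all genes, and 0 passed the filter. The summed endocrine signal was 16.6, 22.3 and 32.6 in withdrawn testosterone mice 1, 2 and 3, against 14.1 to 19.7 in withdrawn vehicle mice. At the end of treatment it was 18.8 to 24.7 in testosterone mice and 15.0 to 26.0 in vehicle mice. Most of the signals summed were dim. Sst alone gave 7.07, 8.58 and 14.1 in withdrawn testosterone mice 1, 2 and 3, and 13.6 in testosterone mouse 3 at the end. Elane, which encodes neutrophil elastase, a serine protease of another subfamily, read 10.2, 8.22 and 5.86 in withdrawn testosterone mice, against 5.41, 7.82 and 8.93 in withdrawn vehicle mice. Of 9 neutrophil granule genes 2 were tested, S100a8 and S100a9, and 0 were called in the 5 comparisons.

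Of 8 elastase inhibitors on the array, 7 were tested. At the end of treatment 0 rose and 1 fell, Serpina3n, an acute phase antiprotease (log2 change -0.77, limma adjusted p = 0.009597), with a median of -0.09 for the 7 against 0.04 for all genes tested, of which 17.4% were called. After withdrawal 1 rose, Serpina1c, a form of the plasma antiprotease alpha-1 antitrypsin (0.30, limma adjusted p = 0.03818). In the same comparison 1 fell, Serpinb1a, an intracellular inhibitor of neutrophil elastase (-1.45, limma adjusted p = 0.01775). The median of the 7 was -0.05 against -0.04 for all genes tested, of which 6.00% were called. The 6 hepatocyte markers tested had a median of 0.19 there, and 1 of them, Apoa1, rose. Whether Serpina1c differed from them was not tested. Serpinb1a read 65.8, 64.0 and 175 in withdrawn testosterone mice 1, 2 and 3, against 219, 292 and 232 in withdrawn vehicle mice. Mice 1 and 2, highest for all 3 elastases, were the lowest of these 6 but not of the series. At the end of treatment Serpinb1a read 22.5, 24.3 and 21.2 in testosterone mice and 23.9, 48.8 and 54.0 in vehicle mice. Of 11 genes for elastin and other elastic fibre proteins on the array, 2 were tested, Fbln5 and Ltbp4, and 0 were called in the 5 comparisons.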

How the data were processed

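Liver RNA of 12 mice was measured on 12 arrays. The authors deposited linear array intensities, with a single signal for each probe set. GCOS and MAS5 are listed, without versions, in the submitters' processing notes. Each array already had a 2% trimmed mean of about 100.05, so the signals were used as deposited. Detection calls were not used here, and having 3 arrays a group limits precision.

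Of 22690 probe sets, 64 were controls, and 20380 had 1 gene symbol in the platform annotation, 691 several and 1555 none. Signals under 4.84, the 25th percentile, were raised to it before log2. Each of 12393 genes was represented by its probe set with the highest mean of these floored log2 signals, and 7217 genes above the array median on at least 3 arrays were tested with limma 3.58.1 (R 4.3.3; lmFit, eBayes with a variance trend, 4 group means), two-sided, with Benjamini-Hochberg adjustment over all genes tested and a call at an adjusted p under 0.05. The code was tested on simulated data. Control ratios were compared by two-sided exact permutation tests (scipy 1.17.1).

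Genes named are the members, the 5 closest to each by Pearson r over the mice, called members of the lists, and up to 4 others of a list by highest signal. Ptf1a, Rbpjl, Bhlha15, Elane, Cpa1, Klk1, Spink1 and 2210010C04Rik were named outside that rule, after their values were seen. Members, lists and comparisons were chosen with earlier results of these data known.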

Additional observations from a re-analysis of the deposited data

Results flagged for a closer look

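A probe set that the annotation assigns to both Cela3a and Cela3b was left out of the comparisons because it names 2 genes. It read 152, 461 and 4.89 in testosterone withdrawal mice 1, 2 and 3, against 0.920, 2.63 and 0.476 in vehicle withdrawal mice. The highest of the 9 mice of the other groups was 4.27. It was picked out because the signals of mice 1 and 2 lay above those of all vehicle mice in data that the comparisons do not use. Mouse 2 exceeded mouse 1 by 3.03-fold at this probe set.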

How the results depend on the processing

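Of 180 changes of the 3 elastases recomputed with 1 mouse left out, 165 were kept, and of 183 under other settings 164 were. Kept means the same direction and side of the threshold or, for Cela3b, a move of less than the spread between mice. That spread holds the gap between testosterone withdrawal mouse 3 and mice 1 and 2, so for Cela3b the rule is loose. Changes with 1 mouse left out ran as follows on the log2 scale. For Cela1 they were 0.63 to 0.83 at the end of treatment, 1.66 to 2.09 after withdrawal, 0.94 to 1.36 for the difference between the times, 0.20 to 0.62 for the time in testosterone mice and -0.99 to -0.59 for the time in vehicle mice. For Cela2a they were -0.88 to 0.18, 1.75 to 4.0, 2.26 to 4.50, 1.23 to 3.48 and -1.40 to -0.34 in the same order. For Cela3b they were -0.74 to -0.34, 1.24 to 2.30, 1.80 to 2.85, 1.77 to 2.83 and -0.18 to 0.21.

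The direction turned for Cela2a at the end of treatment without vehicle mouse 1 (0.18) and, with mouse 3 as the lone withdrawn testosterone mouse, for the time in testosterone mice of Cela1 (-0.13) and Cela2a (-0.39), none of them called. That setting was chosen after seeing the data. Cela1 lost its calls at the end of treatment and for the time in vehicle mice without the filter (0.73 and -0.74, with more genes tested) and with the actin ratio as a covariate (0.80 and -0.71, the cause was not tested). Cela1 passed the threshold for the difference between the times with array weights (1.20). Cela2a passed it after withdrawal with the replicate block (2.71), median centring (2.80) and array weights (2.77). Without testosterone withdrawal mouse 3, Cela2a passed in all 3 comparisons that hold this mouse (4.0, 4.50 and 3.48). Leaving it out keeps in that group only mice whose arrays let Cela2a pass the filter. Cela3b moved with the floor at the 10th percentile (-1.26 at the end, 3.05 for the difference, 3.02 for the time in testosterone mice), at the 40th (1.48 for the difference and for the time), with the mean of probe sets (2.70 after withdrawal) and with mouse 3 alone (0.78, 1.34 and 1.31). Leaving out probe sets shared between transcripts gave no Cela2a value, since its probe set is of that kind.

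Calls over all genes numbered 1258 at the end of treatment (789 to 1360 with 1 mouse left out, 78 with the actin ratio), 433 after withdrawal (236 to 634, 286 without the filter, 263 with the ratio, 250 with mouse 3 alone), 158 for the difference (26 to 542, 37, 1 and, with the replicate block, 55), 785 for the time in testosterone mice (454 to 888, 490, 110, 313 with mouse 3 alone) and 1288 in vehicle mice (584 to 1386, 792, 232). The replicate numbers of the titles did not pair the mice: of 18 same-numbered pairs, 0 correlated over 0.1 (r from -0.19 to 0.0056). The replicate block changed no elastase call other than that of Cela2a after withdrawal. Signals near the floor limit Cela3b and the dim mice of Cela2a.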
